A study of Homo sapiens with 18 samples.

Results

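The 9 genes described here encode the core of MHC class I antigen presentation: the heavy chains HLA-B, HLA-C, HLA-E and HLA-F, the light chain B2M, the peptide transporter subunits TAP1 and TAP2, the loading factor TAPBP (tapasin) and the transactivator NLRC5. They were found by matching the Ensembl identifiers of the count table, which lists 58302 genes, to gene symbols, and each of the 9 matched 1 row. Levels were measured by RNA-seq in U87MG, a human cell line established from a glioblastoma. The comparison was between 2 libraries of control cells and 2 libraries of cells treated with Erastin at 10 μM for 72 h. The titles of the control libraries call them WT and name no dose or time. Erastin is a small molecule that blocks cystine import by system Xc- and drives cells into ferroptosis, an iron-dependent form of cell death. All 4 libraries came from the same unmodified line.

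Class I molecules show peptides made inside the cell to cytotoxic T cells. Proteasomes cut proteins, the TAP1 and TAP2 transporter carries the fragments into the endoplasmic reticulum, and tapasin holds the empty heavy chain and B2M at the transporter until a peptide is bound. NLRC5 has no DNA-binding domain of its own: it acts with the RFX complex, CREB1 and NF-Y at the promoters of class I genes. Interferons raise the whole set, in part through IRF1. Glioma cells are known for variable class I levels.

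Each library held between 29412656 and 31513519 counts on genes, and between 23519 and 23990 genes had a count. A count of 0 in a library allows a level of counted reads of up to 0.0952 to 0.102 CPM (counts divided by library size and multiplied by 1e6). This is 3 counts of the total, and it limits the RNA only where the reads of a gene can be counted. Reads were counted without molecular identifiers, so PCR copies of 1 molecule count as several reads. The 2 reads of a pair were also counted separately. Such limits and intervals cover only the counting error of independent reads, so they are too narrow for molecules. Of the labelled glioma line's markers, VIM and CD44 were high and GFAP low, between 1.32 and 2.58 CPM, and S100B and SOX2 lay between 0 and 0.191 CPM. The labels do not say whether the 2 replicates of a group were separate cultures, and if not, the p-values measure only technical spread.

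Of the 9 genes, 7 lie on the short arm of chromosome 6, in the part of the genome with most alternate versions in the GRCh38 assembly. The assembly holds these versions as alternate scaffolds, and the counting command left out reads that were reported at more than 1 place. Whether the alignment index held the scaffolds is not given in the sources used here. The stretches below show what is shared. Each is 90 coding bases of GRCh38, read 5′ to 3′ on the gene's strand, and capitals mark bases in a 31-base word that recurs on any of the 261 alternate scaffolds. HLA-B is shown at chr6:31355409-31355498, HLA-C at chr6:31270302-31270391, HLA-E at chr6:30490332-30490421, TAP1 at chr6:32853292-32853381, B2M at chr15:44715517-44715606 and NLRC5 at chr16:57026148-57026237.
HLA-B: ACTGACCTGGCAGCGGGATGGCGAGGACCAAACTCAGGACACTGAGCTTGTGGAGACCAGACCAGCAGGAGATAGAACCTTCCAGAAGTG
HLA-C: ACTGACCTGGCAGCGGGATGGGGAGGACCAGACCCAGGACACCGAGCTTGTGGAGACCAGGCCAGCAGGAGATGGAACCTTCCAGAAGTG
HLA-E: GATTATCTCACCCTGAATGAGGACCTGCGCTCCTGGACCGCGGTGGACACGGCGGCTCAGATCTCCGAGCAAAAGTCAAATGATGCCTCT
TAP1: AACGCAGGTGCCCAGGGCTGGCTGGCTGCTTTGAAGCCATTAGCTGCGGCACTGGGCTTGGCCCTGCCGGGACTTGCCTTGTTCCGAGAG
B2M: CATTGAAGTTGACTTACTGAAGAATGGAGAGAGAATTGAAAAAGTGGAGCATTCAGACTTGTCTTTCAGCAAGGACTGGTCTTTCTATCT
NLRC5: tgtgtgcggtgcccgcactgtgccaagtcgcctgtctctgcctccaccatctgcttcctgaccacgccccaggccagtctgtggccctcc

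The HLA-B and HLA-C stretches come from the same part of exon 4 and are identical at 84 of 90 bases. All 90 bases were shared with an alternate scaffold for the 5 chain and transporter stretches, and none for NLRC5. Over all exons, 100% of the 31-base words of HLA-E, TAP1 and TAPBP recurred on alternate scaffolds. The share was 99.5% for TAP2, 97.7% for HLA-F, 95.5% for HLA-C, 95.1% for B2M and 84.5% for HLA-B. NLRC5, on chromosome 16, was the exception, with 0.307%. B2M lies on chromosome 15, where 1 alternate scaffold covers it. Of its exonic words, 294 did not recur, and 0 of these lay in its coding exons, so nearly all of the B2M messenger is in shared sequence.

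Heavy chain genes were at or near 0 counts in every library. HLA-B (chr6:31269491-31357188) had counts of 0 and 1 in the controls, against 2 and 4 with Erastin. HLA-C (chr6:31268749-31272130) had 0 counts in all 4 libraries. For counted reads, this allows up to 0.0478 CPM over the control group and 0.0497 CPM over the Erastin group. With 95.5% of the HLA-C words on alternate scaffolds, these are limits on counted reads and not on RNA. The gene model of HLA-B in the table's annotation (Ensembl release 90) spans that of HLA-C.

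The non-classical chain HLA-E (chr6:30489467-30494205), a ligand of natural killer cell receptors, had counts of 7 and 4 in the controls, against 7 and 10 with Erastin. HLA-F (chr6:29722775-29738528) had 2 and 2 counts against 1 and 1. None of the 4 heavy chains passed the low-count filter, and their counts were too few to compare. Whether these counts follow the RNA levels was not tested. Summed over the groups, HLA-E was at 0.175 CPM in control cells (exact Poisson 95% interval 0.0875 to 0.314) and 0.282 CPM in Erastin-treated cells (0.164 to 0.451), and the intervals overlapped.

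**Figure D1:**
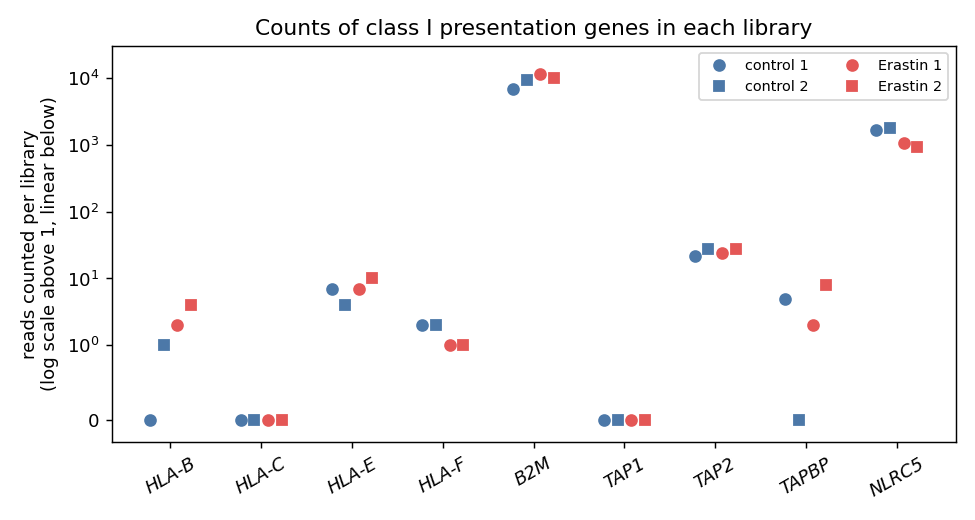
Reads counted on each of the 9 genes, with 1 point per library (circles replicate 1, squares replicate 2), on an axis that is logarithmic above 1 and linear below. Only B2M and NLRC5 reach 100 counts in a library, and HLA-C and TAP1 sit at 0 in all 4.

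The transporter and loading genes also had few counts. TAP1 (chr6:32845209-32853978) had 0 counts in all 4 libraries, as did PSMB9, the immunoproteasome subunit gene that overlaps it on the opposite strand. TAP2 (chr6:32821833-32838780) had counts of 22 and 28 in the controls, against 24 and 28 with Erastin, so the groups overlapped. Its log2 fold change was 0.06 (95% interval -1.02 to 1.15, Benjamini-Hochberg adjusted p = 0.932, edgeR's quasi-likelihood test), an interval that holds changes of about 2-fold either way. TAPBP (chr6:33299694-33314387) had 5 and 0 counts against 2 and 8, and its replicates differed more than its groups. Summing 6 heavy chain genes and 9 class I pseudogenes, 15 in all, into 1 value gave counts of 13 and 11 in the controls, against 10 and 21 with Erastin, and a log2 difference of 0.36 (95% interval -1.10 to 1.83, adjusted p = 0.692, edgeR).

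B2M (chr15:44711477-44718877), the light chain that every class I molecule needs, had the most counts of the 9. It had counts of 6772 and 9399 in the controls, against 11484 and 9784 with Erastin. Scaled to library size by TMM, these were 221 and 303 CPM in the controls and 384 and 311 CPM after Erastin. Both Erastin libraries lay above both controls, with control 2 and Erastin 2 close together. B2M rose from 262 ± 57.3 to 348 ± 51.3 CPM (SD, n = 2 each), a log2 fold change of 0.41 (standard error, SE, 0.129, 95% interval 0.13 to 0.69, adjusted p = 0.0215, edgeR). The call was not made by DESeq2 (adjusted p = 0.240), nor without Erastin replicate 1, where the log2 fold change was 0.25 (adjusted p = 0.203). Without control replicate 1 it was 0.20, and without control replicate 2 it was 0.64.

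NLRC5 (chr16:56989485-57083531), the transactivator, moved the other way. It had counts of 1666 and 1754 in the controls, against 1051 and 931 with Erastin, and all of the Erastin values lay below all of the control values. It fell from 55.5 ± 1.40 to 32.4 ± 3.89 CPM (SD, n = 2 each), to 0.584 of the control level. This was a log2 fold change of -0.78 (SE 0.100, 95% interval -0.997 to -0.557, adjusted p = 5.66e-05, edgeR). DESeq2 gave the same direction (adjusted p = 7.60e-09), and leaving out any 1 library gave values between -0.91 and -0.66, each with an adjusted p below the threshold of 0.05. In these bulk samples, fewer cells that express a gene and less RNA per cell cannot be told apart.

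**Figure D2:**
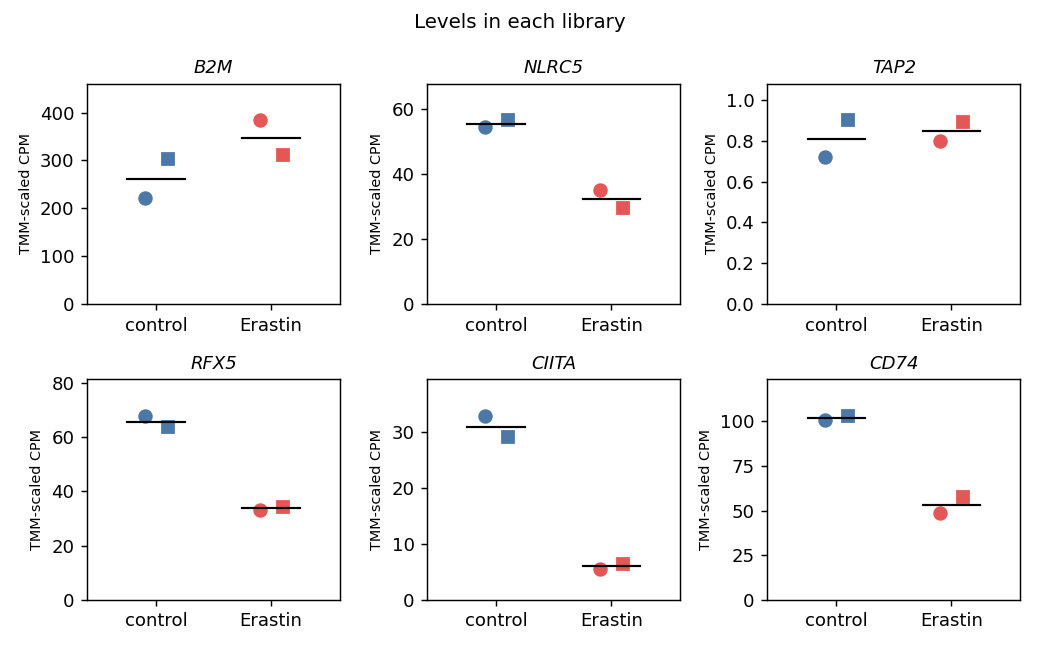
TMM-scaled CPM of B2M, NLRC5, TAP2 and of RFX5, CIITA and CD74 in each library (circles replicate 1, squares replicate 2), with black lines at the group means of 2 libraries. NLRC5, RFX5, CIITA and CD74 have both Erastin points below both control points, B2M has both above, and the TAP2 points overlap.

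Thus, of the 3 class I genes that could be tested, 1 rose, 1 fell and 1 did not pass the test. Over all 16751 genes tested, 23.2% were called higher and 23.7% lower at an adjusted p under 0.05, and with 3 genes no share can be read against that background. None of the 3 passed the study's second threshold, a log2 fold change of 1 in size. That count was 0 with edgeR, 0 at an unadjusted p under 0.05, 0 with DESeq2 and 0 with glmTreat, an edgeR test against that fold change. Over all genes, 6.24% rose and 9.34% fell past both thresholds.

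Per base of gene length, the order of counts was the same at its top in both groups. B2M stood at 149 ± 37.0 TPM in control cells and 225 ± 36.3 TPM after Erastin (SD, n = 2 each; TPM, counts scaled by gene length and library, from the counts and the table's gene lengths). NLRC5 followed at 15.5 ± 0.854 and 10.3 ± 1.38 TPM. TAP2 came next at 0.439 and 0.522 TPM and HLA-E at 0.206 and 0.365 TPM. The ranges of these 4 did not overlap with that of the next gene in order in either group. Leaving aside genes with a library at 0, the neighbouring ranges of HLA-B and TAPBP overlapped after Erastin. CPM in place of TPM exchanged HLA-B and TAPBP after Erastin and left every other rank as it was. Both measures assume that reads of every gene are counted alike. The share of words on alternate scaffolds was 0.307% for NLRC5, 95.1% for B2M, 99.5% for TAP2 and 100% for HLA-E. Whether the order holds for RNA levels was not tested.

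Replicate agreement differed among the genes. The 2 control libraries differed 1.40-fold in B2M, by CPM on library totals, and 99.7% of the 1211 genes within a factor of 2 of its level differed by less. The Erastin libraries differed 1.23-fold, and 99.5% of those genes differed by less. For NLRC5 the replicates differed 1.06-fold in control and 1.19-fold in Erastin-treated cells, more than 41.9% and 92.7% of 4695 genes of like level. The TAP2 replicates differed 1.28-fold and 1.11-fold, more than 36.6% and 14.7% of genes of like level. B2M was thus the gene whose replicates stood furthest apart for its level. Its called difference was 1.33-fold by TMM-scaled group means, and on that scale its control libraries stood at 221 and 303 CPM. The 1.40-fold gap is on library totals, so the 2 ratios are not on the same scale. Beside protein-coding genes with 90% or more of their words on alternate scaffolds, B2M did not stand out. Of these, 42.5% in control and 23.1% in Erastin-treated cells differed by less, though their median level was only 5.15 and 5.26 CPM.

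Sharing of sequence with alternate scaffolds moved with both low counts and replicate differences over all genes. Among protein-coding genes with a share below 10%, 17.7% of 18238 had 0 counts in all libraries and the median was 1038 counts. Among those with 90% or more, 56.9% of 713 had 0 counts and the median was 0. The figures were the same outside the chromosome 6 stretch between HLA-F and TAPBP, at 56.9% of 573 genes. That stretch, chr6:29722775-33314387, held 146 protein-coding genes, of which 54.8% had 0 counts and 8.22% had 100 or more. In flanks of the same length, 38.5% (telomere side) and 21.1% (centromere side) had 0 counts. The median share was 100% in the stretch and 0% in each flank. Both flanks also hold some genes with shares near 100%, with and without counts, so they are not free of shared sequence.

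**Figure D3:**
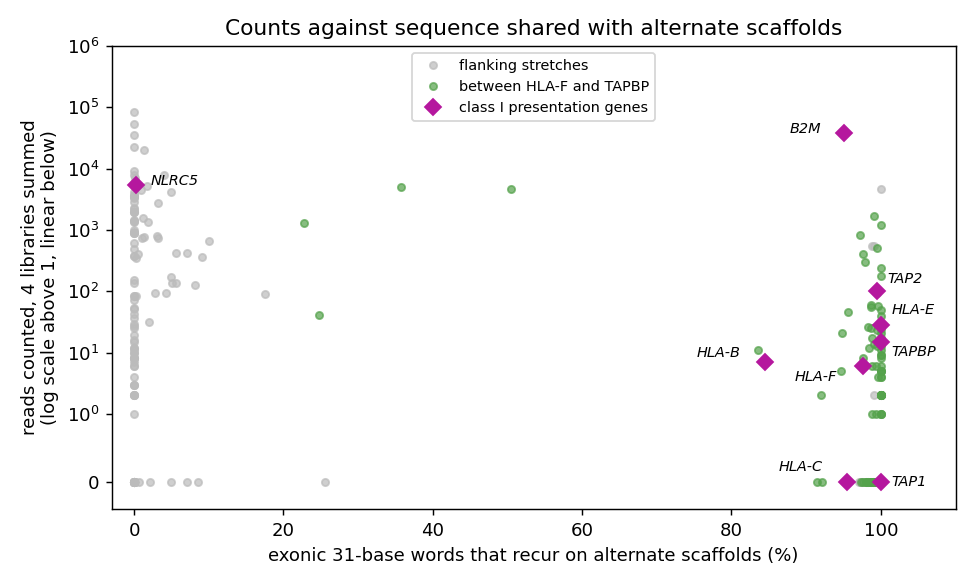
Reads summed over the 4 libraries (log scale above 1, linear below) against the percentage of exonic 31-base words that recur on alternate scaffolds, for protein-coding genes of the chromosome 6 stretch (green), its flanks (grey) and the 9 class I genes (diamonds, with B2M and NLRC5 from other chromosomes). Most green points lie near 100% and low counts, NLRC5 lies near 0%, and B2M has 37439 counts at 95.1%.

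Among protein-coding genes that averaged 1 CPM or more and had a share of 90% or more, the replicates were over 2-fold apart for 33.0% of 106 genes in control and 40.4% of 104 genes in Erastin-treated cells. Below a share of 10%, the values were 0.812% and 1.07% of 11208 and 11209 genes. The first set had lower levels, with a median of 5.15 CPM against 35.2 CPM in the controls. Of genes with at least 10 CPM, 14.3% and 28.6% of 35 were over 2-fold apart, against 0.0680% and 0.0566% of 8827. Of genes tested, 24.7% of 186 with a share of 90% or more were called in either direction, against 47.9% of 15587 below 10%. The part of the shared sequence in the low heavy chain counts and in the B2M difference was not tested, since the reads were not used here.

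**Figure D4:**
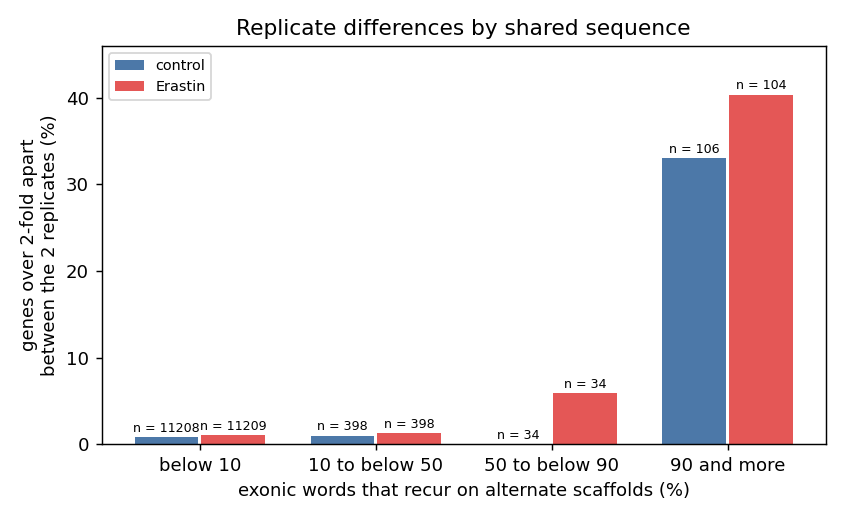
Percentage of protein-coding genes (1 CPM or more on average, with n above each bar) whose 2 replicates were over 2-fold apart, by the share of exonic words on alternate scaffolds, for control (blue) and Erastin (red). The bars reach 33.0% and 40.4% where 90% or more of the words recur.

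The genes next to the 9 were mostly uncounted. PATL2, whose start lies 161 bases from that of B2M on the opposite strand, had counts of 21 and 35 in the controls, against 78 and 54 with Erastin, few beside those of B2M. Within NLRC5, the opposite-strand gene ENSG00000260145 had between 1 and 9 counts. HLA-F-AS1, antisense to HLA-F, had 5, 1, 0 and 0 counts. The counting did not use strand, so reads of a gene and its antisense partner cannot be told apart. By the command's default, reads that fall on exons of both genes are left out, which can lower the counts of both.

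The upstream stretches of B2M and HLA-B show where NLRC5 and its partners are known to act. They hold 250 bases before the RefSeq start in GRCh38, at chr15:44711267-44711516 for B2M and at chr6:31357180-31357429 on the minus strand for HLA-B. Capitals mark the letters ATTGG (the core of the NF-Y box) and TGACG (the core of the CREB box), on either strand, and neither overlaps the other.
B2M: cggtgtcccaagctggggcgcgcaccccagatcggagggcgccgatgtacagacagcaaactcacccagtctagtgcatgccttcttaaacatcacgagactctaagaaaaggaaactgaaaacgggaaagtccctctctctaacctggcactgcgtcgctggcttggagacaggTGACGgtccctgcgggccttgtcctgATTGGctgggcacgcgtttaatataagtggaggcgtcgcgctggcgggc
HLA-B: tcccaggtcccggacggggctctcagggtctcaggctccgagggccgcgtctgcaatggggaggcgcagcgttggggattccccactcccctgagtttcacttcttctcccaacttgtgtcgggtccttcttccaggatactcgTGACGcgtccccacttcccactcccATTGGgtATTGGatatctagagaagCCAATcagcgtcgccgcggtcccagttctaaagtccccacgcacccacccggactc

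The B2M stretch held ATTGG 1 time and TGACG 1 time, and that of HLA-B held ATTGG 3 times and TGACG 1 time. That of TAP2 held TGACG 1 time and no ATTGG, and that of TAPBP held neither. Of 34788 RefSeq upstream stretches of the same length, 32.02% held ATTGG and 21.2% TGACG. A match is a description of the letters.

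The partners of NLRC5 at such promoters had more counts than the heavy chains, and all 11 promoter factors were tested. RFX5, the DNA-binding subunit that class I and class II promoters share, fell from 67.8 and 63.7 CPM to 33.3 and 34.2 CPM (log2 fold change -0.96, SE 0.0842, adjusted p = 2.37e-06, edgeR). RFXANK, another subunit of the RFX complex, rose from 24.2 and 22.1 CPM to 37.6 and 28.9 CPM (log2 fold change 0.52, adjusted p = 0.00633, edgeR). The RFXANK call was lost without Erastin replicate 1 (log2 fold change 0.32, adjusted p = 0.110, edgeR). IRF2, an interferon regulatory factor, fell by 0.60 on the log2 scale (adjusted p = 0.00206). The NF-κB subunits RELA and NFKB1 rose, with log2 fold changes of 0.62 and 0.54 (adjusted p = 9.80e-05 and 0.00156). Of the list, 3 rose, 2 fell and 6 did not pass the test, which is 27.3% and 18.2%, near the shares of all genes, with a median log2 fold change of 0.07 beside 0.00 (-0.0026) over all genes tested.

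Of 6 loading chaperones and trimming enzymes, 1 fell and 5 did not pass. The shares were 0% higher and 16.7% lower, beside 23.2% and 23.7% of all genes. CALR (calreticulin), the chaperone of the loading complex, fell from 1600 and 1557 CPM to 1145 and 1143 CPM (log2 fold change -0.46, SE 0.0608, adjusted p = 6.28e-05, edgeR). The others, CANX, PDIA3, TAPBPL, ERAP1 and ERAP2, had log2 fold changes between -0.10 and 0.34, with intervals as wide as -0.10 to 0.79 for TAPBPL. Of the immunoproteasome and activator genes, PSMB8 and PSMB9 had 0 counts in all libraries, at a share of 100% on alternate scaffolds. PSME1, an activator subunit, fell by 0.43 on the log2 scale (adjusted p = 0.00468). PSMB5, a constitutive catalytic subunit, rose by 0.27 on the log2 scale (adjusted p = 0.0158), and the 2 other constitutive subunits did not pass. The PSMB5 call was lost without Erastin replicate 1 (log2 fold change 0.17, adjusted p = 0.225, edgeR).

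Class I-like chains, which bind other receptors, included the largest rise of the pathway genes tested. MICA, a stress-induced ligand of the receptor NKG2D, had counts of 6 and 12 in the controls, against 445 and 369 with Erastin. This was a log2 fold change of 5.49 (SE 0.305, adjusted p = 5.21e-08, edgeR), at a share of 97.2% on alternate scaffolds. ULBP1, another NKG2D ligand, rose from 3.14 and 5.47 CPM to 10.7 and 12.5 CPM (log2 fold change 1.43, adjusted p = 4.42e-04), at a share of 0.936%. FCGRT, the neonatal Fc receptor chain that pairs with B2M, rose from 14.6 and 16.8 CPM to 34.3 and 31.9 CPM (log2 fold change 1.08, adjusted p = 1.52e-05). RAET1E, a further NKG2D ligand, fell by 1.33 on the log2 scale (adjusted p = 0.00451). Of 12 such genes, 8 were tested, 5 rose, 1 fell and 2 did not pass, with a median of 0.43. The shares were 62.5% and 12.5% of 8 genes, beside 23.2% and 23.7% of all genes.

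The class II genes that could be tested all fell. Of 10 class II presentation genes, 7 were tested and 7 fell, the median change being -1.57 on the log2 scale. The shares were 0% higher and 100% lower of 7 genes, beside 23.2% and 23.7% of all genes. CIITA, the class II transactivator and a relative of NLRC5, fell from 32.9 and 29.1 CPM to 5.48 and 6.40 CPM (log2 fold change -2.38, SE 0.139, adjusted p = 7.61e-08, edgeR). HLA-DRA had counts of 127 and 112 in the controls and of 0 in both Erastin libraries. In counted reads this is at least 39.6-fold lower against a floor of 3 counts per library. The bound covers counting error only, and whether it holds for the RNA was not tested. HLA-DRB1, whose chain pairs with that of HLA-DRA, fell by 0.74 on the log2 scale (adjusted p = 2.03e-04, edgeR), at a share of 50.5%. HLA-DQA1 and HLA-DQB1 fell by 2.79 and 1.57 on the log2 scale (adjusted p = 0.0363 and 2.09e-05, edgeR), and DESeq2 did not call HLA-DQA1 (adjusted p = 0.0953). The HLA-DQA1 call was also lost without control replicate 1, control replicate 2 or Erastin replicate 1 (adjusted p = 0.0880, 0.110 and 0.211, edgeR). Its counts were 17 and 19 in the controls, against 0 and 5 with Erastin, and its fitted fold change was -1.85 without Erastin replicate 1 and -7.17 without Erastin replicate 2, where the lone Erastin library was at 0. With HLA-DRA at its bound, the median stayed at -1.57. Of the 7, 5 had 10% or more of their words on alternate scaffolds, with HLA-DRA at 100%. CIITA and CD74, the invariant chain, did not. CD74 was at 101 and 103 CPM and then 48.5 and 57.9 CPM.

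Of 10 interferon receptor and signalling genes, 3 rose, 3 fell and 4 did not pass, with a median of 0.10. With 30% called in each direction, beside 23.2% and 23.7% of all genes, the counts lay near the background. IFNGR2, a subunit of the interferon-γ receptor, and IFNAR2, a subunit of the type I receptor, fell by 1.38 and 0.63 on the log2 scale (adjusted p = 0.00886 and 0.00357, edgeR). The share on alternate scaffolds was 74.9% for IFNGR2. JAK2, a kinase of the interferon-γ receptor, fell by 0.59 (adjusted p = 1.87e-04), and STAT2 rose by 0.61 (adjusted p = 2.08e-05).

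Of 18 interferon-stimulated genes, 15 were tested, 2 rose, 7 fell and 6 did not pass (median log2 fold change -0.13). The shares were 13.3% higher and 46.7% lower, beside 23.2% and 23.7% of all genes. IFI44L fell from 35.9 and 36.6 CPM to 4.85 and 5.60 CPM (log2 fold change -2.79, adjusted p = 1.20e-08, edgeR). GBP2, an interferon-induced GTPase, fell from 43.9 and 42.6 CPM to 6.55 and 8.21 CPM (log2 fold change -2.55, adjusted p = 2.84e-08). The oligoadenylate synthetase genes OAS3 and OAS1 fell (log2 fold changes -2.82 and -3.69, adjusted p = 4.53e-07 and 0.00641). OAS1 had counts of 24 and 31 in the controls, against 4 and 0 with Erastin. Its fitted fold change was -2.70 without Erastin replicate 2 and -7.80 without Erastin replicate 1, where the lone Erastin library was at 0. In the other direction, IFIT3 rose from 8.27 and 6.34 CPM to 19.0 and 22.0 CPM (log2 fold change 1.49, adjusted p = 1.40e-05, edgeR). MX2 rose with a log2 fold change of 0.94 (adjusted p = 0.0220, edgeR), a call that DESeq2 did not make (adjusted p = 0.0747) and that was lost without control replicate 2 or Erastin replicate 1 (adjusted p = 0.100 and 0.0657, edgeR).

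**Figure D5:**
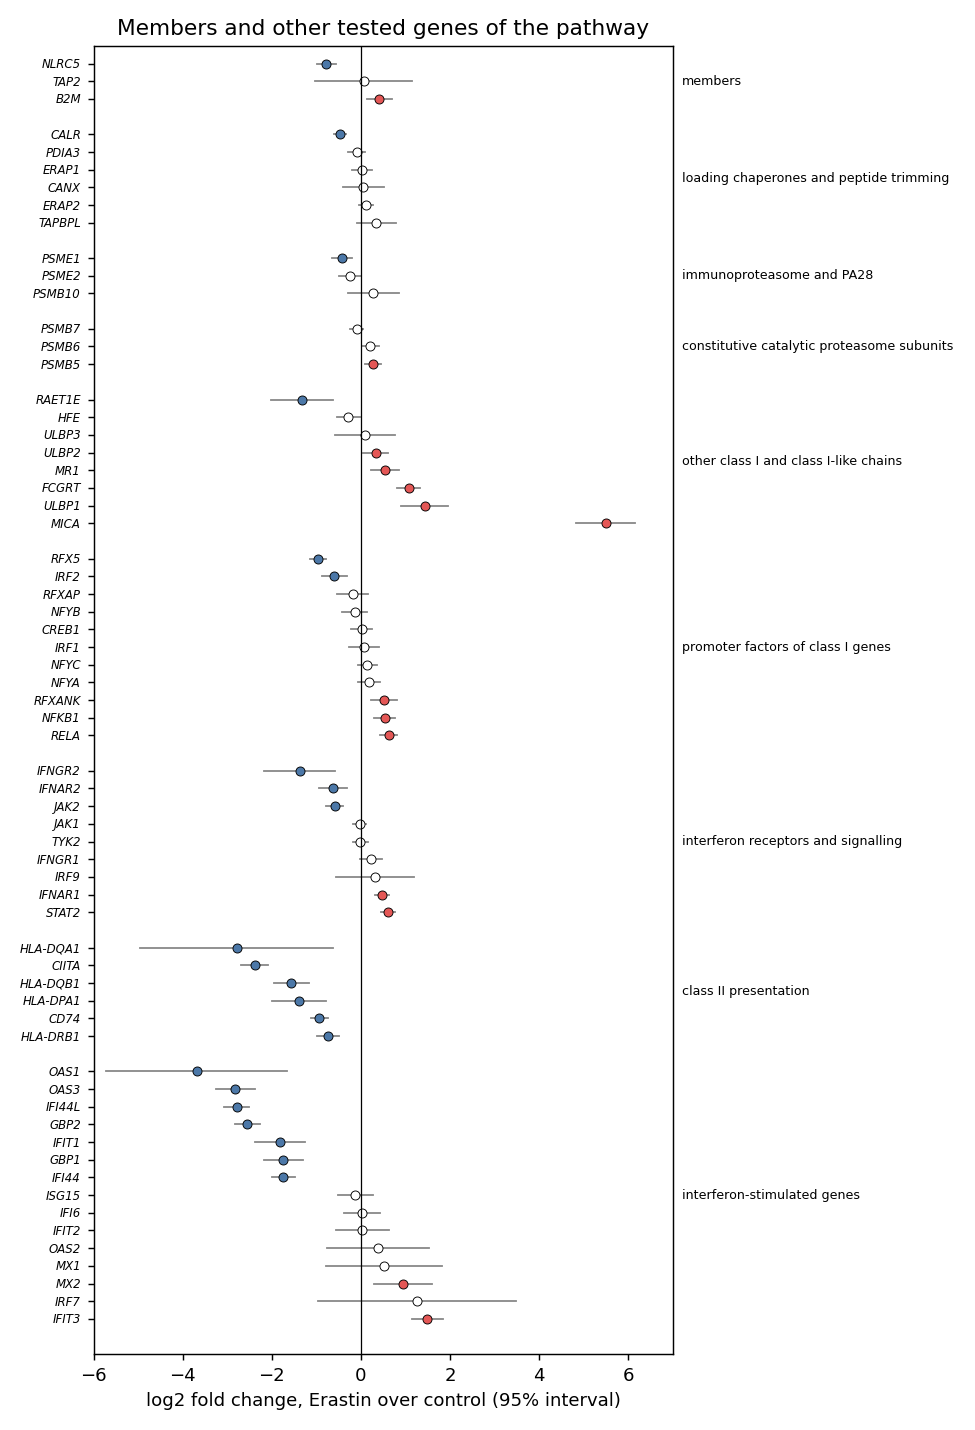
Log2 fold change of Erastin over control (points) with 95% intervals (lines) for the tested class I genes and the other tested genes of the pathway by list. Filled points passed an adjusted p under 0.05 (red higher, blue lower), open points did not, and HLA-DRA, at 0 counts in both Erastin libraries, is left out.

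Over all lists, 63 of 84 other pathway genes were tested, of which 14 rose and 22 fell (median log2 fold change 0.01). These were 22.2% and 34.9% of those tested, beside 23.2% and 23.7% of all genes. Leaving out every gene with 10% or more of its words on alternate scaffolds gave 13 higher and 16 lower, counts not read here as shares. In the main fit, 23.6% and 24.3% of the 15587 genes tested below 10% were called higher and lower. With those genes left out, NLRC5 was still called lower (log2 fold change -0.78, adjusted p = 1.18e-05, edgeR) and B2M was not tested.

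Markers of other cell types that could carry class I or class II genes were low. Of 10 leukocyte markers, 3 had 0 counts in all libraries and 1 was tested, and CD3E was among those at 0. AIF1, also at 0, had 100% of its words on alternate scaffolds and PTPRC 62.3%, so their low counts say little about leukocytes. The summed level of the list was between 8.85 and 8.86 CPM in the controls and between 5.82 and 6.30 CPM after Erastin, most of it CSF1R, which fell by 0.66 on the log2 scale (adjusted p = 0.0116, edgeR). Summed endothelial markers were at 4.64 and 6.18 CPM and then 1.64 and 2.07 CPM. PECAM1 fell by 2.34 on the log2 scale (adjusted p = 4.81e-05) and VWF rose by 2.58 (adjusted p = 0.0125). Of the glioma markers, VIM, CD44 and NES fell by 0.60, 0.36 and 3.62 on the log2 scale (adjusted p = 1.27e-05, 6.44e-04 and 3.97e-08), and the summed level of the 6 went from 3994 and 3920 CPM to 2670 and 2859 CPM. The part of these shifts in the changes of NLRC5 and the class II genes was not tested.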

How the data were processed

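RNA of U87MG cells was sequenced in 4 libraries, 2 control and 2 Erastin, grouped by their labels. The authors deposited raw counts of reads per gene, and per the file header the table was written by featureCounts 2.0.3 for paired reads without strand, with the Ensembl release 90 annotation of GRCh38. The submitters' processing notes name HISAT2 2.1.0, featureCounts 2.0.4 and DESeq2 1.18.1, whereas the methods name htseq-count. All deposited values were whole numbers, as raw rather than estimated counts are, and rounding changed 0 of them. Reads reported at more than 1 place or on more than 1 gene are left out by the command's default, and the 2 reads of a pair count separately.

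The counts were tested with edgeR 4.0.16 under R 4.3.3. Its filterByExpr (minimum count 10) kept 16751 genes, TMM scaled the libraries, and the quasi-likelihood test gave two-sided p-values, adjusted by the Benjamini-Hochberg method over all of them. The smallest two-sided p of an exact permutation test of 2 against 2 libraries is 0.333. Standard errors are the fold change divided by the square root of F. On simulated data for this comparison, with 16340 genes in the step, 97 of 100 genes changed by 1 on the log2 scale and 100 of 100 changed by 2 were called, with 8 unchanged genes. The changed genes had mean levels above that of TAP2, and all genes were simulated with the same dispersion between replicates. The recovery therefore does not show how often a change in TAP2 or B2M would be called.

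The share of words is the percentage of a gene's exonic 31-base words that occur on any of 261 alternate scaffolds of GRCh38. Coding exons were those of GENCODE release 44. Upstream sequences came from RefSeq on GRCh38, matched by symbol, and HLA-E and NLRC5 had no entry.

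The 9 genes and all lists were chosen with earlier results of these data known. Named were the 9 genes, up to 4 called genes with the largest change from each list, and genes that overlap one of the 9 or start within 5000 bases of it. CD74, HLA-DRB1, RFXANK, IFIT3, MX2, AIF1, PTPRC, the genes without a call, GFAP, S100B and SOX2 were named outside that rule. The alternatives tried were each library left out, DESeq2 1.42.0, library totals, RLE size factors, a filter of 10 counts in every library or none, counts divided by 2 or thinned to the smallest total, a replicate block and glmTreat. Leaving out genes with 10% or more of words on alternate scaffolds was added after the data were seen. Same-numbered libraries had deviations from their group means that correlated at 0.0142 over 14579 genes, so the numbers were not taken as pairs. Some listed genes are not reported here by name or plotted, but are in the counts per list. ChIP-seq and HiChIP data were not analysed here.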

Additional observations from a re-analysis of the deposited data

How the results depend on the processing

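The fall of NLRC5 kept its direction and its call under every alternative in which it was tested against no change, with log2 fold changes between -0.91 and -0.66 when 1 library was left out. Tested against a log2 fold change of 1 with glmTreat, 0 of the 9 genes were called. B2M kept its direction where it was tested, but its call was lost with DESeq2 (log2 fold change 0.41, adjusted p = 0.240) and without Erastin replicate 1. With 1 library left out its log2 fold change ranged from 0.20 to 0.64. The count of class I genes called higher was therefore 0 with DESeq2, and between 0 and 1 with 1 library left out. It was also 0 when genes with 10% or more of their words on alternate scaffolds were left out, since B2M was then not among the genes tested. The cause of the loss with DESeq2 was not tested. TAP2, which was not called, ranged from -0.092 to 0.23 with 1 library left out. Without a call in the main test, CANX ranged from -0.16 to 0.24, ERAP1 from -0.027 to 0.063 and PDIA3 from -0.23 to 0.040. PDIA3 passed the test only without control replicate 1 (adjusted p = 0.00248, edgeR) and TAPBPL only without control replicate 2 (log2 fold change 0.60, adjusted p = 0.0177, edgeR). In these fits a group with 1 library was assumed to vary like the other.

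With a replicate block, 8107 genes were called in place of 7869, of which 7784 were shared, and the log2 fold changes were 0.42 for B2M (adjusted p = 0.00411) and -0.78 for NLRC5 (adjusted p = 2.35e-06). The correlation of 0.0142 between same-numbered libraries gave no sign of pairs, but it cannot show how the libraries were prepared. The block changed no call of the 9 genes. HLA-B, HLA-C, HLA-E, HLA-F, TAP1 and TAPBP had too few counts to pass the low-count filter, so no difference in them was detectable, and the cause of their low counts was not tested.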

Other observations

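Within the chromosome 6 stretch between HLA-F and TAPBP, a few genes whose exonic words recur almost wholly on alternate scaffolds had counts, and some of these moved by library rather than by group. They were chosen after their values were seen. SKIC2, an RNA helicase gene with 100% of its words shared, had counts of 4 and 109 in the controls, against 0 and 61 with Erastin. BRD2, a chromatin reader gene at 97.9%, had 13 and 10 counts and then 233 and 43. AGPAT1, an enzyme of phospholipid synthesis at 99.1%, had 441 and 330 counts and then 365 and 530, and PRRC2A at 99.5% had 135, 120, 125 and 121. Some other genes of the stretch, at 100%, had few counts over the 4 libraries. RPS18, a ribosomal protein gene, had 1, DDX39B had 21, BAG6 had 40 and TUBB, a tubulin gene, had 50. These were also chosen after their values were seen, and whether such counts follow the RNA levels was not tested. The stretch as a whole took between 0.0124% and 0.0164% of the counts of a library over its 307 genes.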
